A study of Mus musculus with 10 samples.

Results

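The let-7 guide strands and miR-98-5p, 10 mature miRNAs of the 1892 on the array, were compared between T-C cell and control cell samples. They were chosen by name, as the let-7 guide strands together with the closely related miR-98-5p, and each was read at 2 spots per array. A guide strand is the strand of a hairpin that is loaded into Argonaute, and loading was not measured here. RNA from 5 T-C cell samples and 5 control cell samples was hybridized to one-colour mouse miRNA arrays. T-C cell samples carry the source label Col-/- and control cell samples the label Control Col. The treatment text gives 0.5 mg of TN-CF for a dish of 100000 T-C cells over 24 hours, beside a control. All samples are male, all are described as sle liver, and a mouse liver cell culture is named. The labels do not spell out T-C, TN-CF, Col or sle, and treatment and source label cannot be told apart. Nothing in the labels assigns the 5 samples of a group to different animals or dishes. The p-values therefore reflect only how much these samples vary, and that variation may be technical.

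let-7 was found in the nematode Caenorhabditis elegans as a timing gene of late development, and in mammals several near-identical copies are made from separate hairpins. Each guide strand pairs through its seed, bases 2 to 8, with sites in messenger RNAs such as those of Hmga2, the Ras genes and Lin28, and lowers their output. Lin28 proteins in turn bind many let-7 precursors and block their maturation, so guide strand levels usually rise as cells differentiate. In adult tissues, liver included, the family is among the abundant miRNAs.

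The sequences are shown because the members differ by so few bases. They are the target sequences of the array, 5′ to 3′, and each equals a stretch of a RefSeq hairpin on GRCm38.p6. Capitals mark bases 2 to 8, the seed. miR-1961, the other miRNA on the array with that seed, and let-7j, whose base 8 departs from it (G8U against let-7i-5p, counted from the 5′ end), are added for comparison. The prefix mmu marks mouse and is mostly left out elsewhere.
mmu-let-7a-5p: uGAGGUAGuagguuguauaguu
mmu-let-7c-5p: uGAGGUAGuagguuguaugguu
mmu-let-7b-5p: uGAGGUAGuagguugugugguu
mmu-let-7d-5p: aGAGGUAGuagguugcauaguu
mmu-let-7f-5p: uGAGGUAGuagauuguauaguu
mmu-miR-98-5p: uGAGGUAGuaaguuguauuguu
mmu-let-7g-5p: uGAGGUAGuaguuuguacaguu
mmu-let-7i-5p: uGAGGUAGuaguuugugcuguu
mmu-let-7e-5p: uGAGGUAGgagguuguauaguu
mmu-let-7k: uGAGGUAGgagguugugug
mmu-miR-1961: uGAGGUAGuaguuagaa
mmu-let-7j: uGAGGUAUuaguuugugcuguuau

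All 10 share the seed. Aligned at the 5′ end, 5 of the 45 pairs differ by 1 base, 12 by 2, 12 by 3, 12 by 4, 3 by 5 and 1 by 6. let-7a-5p differs from let-7e-5p by U9G, from let-7c-5p by A19G and from let-7f-5p by G12A, where the first letter is the base of let-7a-5p and positions count from the 5′ end. let-7k has 19 bases and the other members have 22. Over those 19 bases it differs from let-7b-5p by U9G and from let-7e-5p by A17G and A19G (first letters from let-7b-5p and let-7e-5p). Probes for sequences this close may take up each other's targets, and how far they did was not tested.

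The deposited values are median spot intensities, a linear scanner brightness with array medians from 72.0 to 282, so without a common scale between arrays. For the tests, intensities were converted to log2(intensity + 50), averaged over the 2 spots and normalized between arrays by cyclic loess, and limma was fitted to all 476 miRNAs detected on at least 5 of 10 arrays. A miRNA counted as detected above the mean of an array's blank spots plus 3 SD, a limit between 64.0 and 474, and between 189 and 1314 miRNAs were detected per array. All 10 members were tested. Of these, 9 were detected on all 10 arrays, while miR-98-5p was under the limit on T-C cell replicate 3 (334 against 474) and control cell replicate 2 (268 against 319). The brightest member value, 8611, was far below the brightest miRNA spot of the arrays, 57674. The spots of a member differed by a median of 0.10 on the log2 scale over 100 member and array combinations and by at most 0.45, for let-7k on control cell replicate 4. The small number of arrays, 5 a group, limits the precision.

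Liver markers were uneven. miR-122-5p, which is abundant in hepatocytes, exceeded the detection limit on 1 of 5 T-C cell arrays and 0 of 5 control cell arrays, while miR-192-5p and miR-194-5p, made in liver and gut epithelium, were detected on all 10. The summed intensity of 6 hepatocyte markers lay between 20395 and 35218 in T-C cell arrays and between 22160 and 34523 in control cell arrays, and 0 of the 4 tested passed (limma). In RNA from many cells, fewer cells of a type and less RNA per cell cannot be told apart. The summed intensity of 5 leukocyte markers lay between 2380 and 5917 in T-C cell arrays and between 1984 and 2478 in control cell arrays. Of these markers, miR-150-5p rose (log2 difference 0.86, limma adjusted p = 0.0433) and the other 4 did not pass. The summed intensity of 5 epithelial markers lay between 20034 and 33955 in T-C cell arrays and between 19430 and 33905 in control cell arrays, and that of 5 fibroblast and stellate cell markers between 30246 and 56376 in T-C cell arrays and between 37469 and 44972 in control cell arrays, with 0 of these 10 markers passing (limma). Of the 3 muscle markers, 2 erythroid markers and 2 endothelial markers, 0 passed among those tested (limma). The summed intensity of the erythroid markers lay between 729 and 1502 in T-C cell arrays and between 583 and 1219 in control cell arrays, that of the endothelial markers between 2873 and 5221 in T-C cell arrays and between 3023 and 3909.7 in control cell arrays, and that of the muscle markers between 1855 and 2859 in T-C cell arrays and between 2608 and 2998 in control cell arrays. Each marker was detected on at least 1 array. The part of these cell types in the let-7 values was not tested.

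By brightness the members fell into a bright and a dim set, with no bearing on copy number because probes differ in affinity. Over the 10 arrays the mean normalized log2 level was 12.36 for let-7c-5p, 12.30 for let-7a-5p, 12.16 for let-7f-5p, 12.09 for let-7d-5p, 11.95 for let-7g-5p, 11.78 for let-7b-5p and 11.62 for let-7i-5p. let-7k (9.95), let-7e-5p (9.82) and miR-98-5p (8.52) lay well below. In T-C cell arrays, let-7c-5p and let-7a-5p, let-7f-5p and let-7d-5p, and let-7b-5p and let-7g-5p were neighbours in level that differed by less than the larger of their SDs, and the steps between these pairs (0.20 and 0.28) and down to let-7i-5p (0.30) exceeded it. In control cell arrays let-7c-5p, let-7a-5p, let-7f-5p, let-7g-5p and let-7d-5p followed each other by less than the SD, and the step from let-7d-5p to let-7i-5p (0.29) exceeded it. The order itself differed: let-7b-5p held rank 5 or 6 among the members on T-C cell arrays and rank 6 or 7 on control cell arrays, and let-7g-5p held ranks 4 to 6 on T-C cell arrays and 3 to 5 on control cell arrays.

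**Figure D1:**
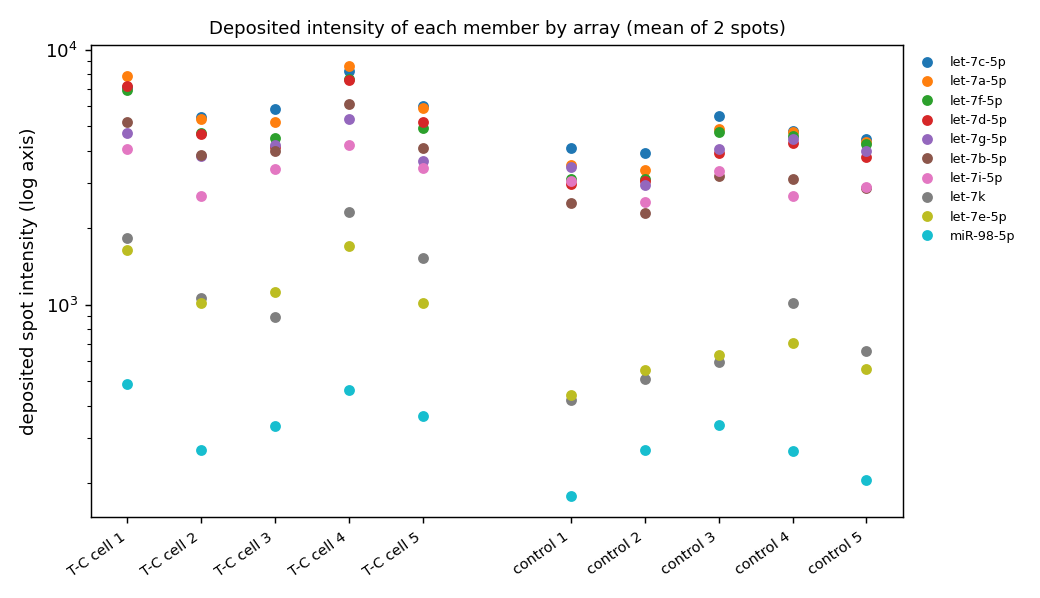
Deposited intensity of the 10 members on each array (mean of 2 spots, log axis), T-C cell arrays on the left and control cell arrays on the right. T-C cell replicates 1 and 4 are the brightest for let-7a-5p, at 7901 and 8611, and let-7e-5p and let-7k reach at most 707 and 1012 on control cell arrays.

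let-7e-5p and let-7k, the members with G at position 9, had the largest differences. mmu-let-7e-5p comes from a hairpin that lies 368 bases from that of miR-125a, inside an intron of Spaca6 (chr17:17830366-17830387, plus strand, GRCm38.p6). Its deposited intensities were 1641, 1010.02, 1116, 1693 and 1009.94 in T-C cell replicates 1 to 5, against 442, 552, 637, 707 and 558 in control cell replicates 1 to 5. Every T-C cell array was brighter than every control cell array, with a clear gap between 707 and 1009.94. On the normalized scale let-7e-5p averaged 10.31 ± 0.17 across T-C cell arrays, against 9.33 ± 0.23 across control cell arrays (n = 5 each, SD), and it rose 1.97-fold (log2 difference 0.98, SE 0.16, 95% interval 0.63 to 1.33, limma adjusted p = 0.0142). Of the 476 miRNAs tested it had the second smallest p.

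mmu-let-7k, which lies outside other annotated genes (chr5:147283257-147283275, minus strand, GRCm38.p6), had intensities of 1822, 1064, 893, 2299 and 1526 in T-C cell replicates 1 to 5, against 423, 511, 594, 1012 and 657 in control cell replicates 1 to 5. In these unscaled values the groups overlapped, because control cell replicate 4 was brighter than T-C cell replicate 3, whereas after normalization they did not. let-7k averaged 10.49 ± 0.29 across T-C cell arrays, against 9.41 ± 0.45 across control cell arrays (n = 5 each, SD), and rose 2.11-fold (log2 difference 1.08, SE 0.23, 95% interval 0.57 to 1.58, limma adjusted p = 0.0391). When single arrays were left out, the call of mmu-let-7k was lost for T-C cell replicate 4 and for control cell replicates 1, 2, 3 or 5 (limma adjusted p from 0.0786 to 0.0940). That of mmu-let-7e-5p was lost for control cell replicate 2 (limma adjusted p = 0.0615) or 3 (0.0560).

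The brighter members let-7a-5p, let-7d-5p and let-7b-5p rose by similar amounts. mmu-let-7b-5p had normalized log2 levels of 12.03, 11.96, 12.21, 12.18 and 12.20 in T-C cell replicates 1 to 5, against 11.18, 11.30, 11.63, 11.66 and 11.42 in control cell replicates 1 to 5. All T-C cell arrays lay above all control cell arrays. It rose 1.60-fold (log2 difference 0.68, SE 0.14, 95% interval 0.37 to 0.98, limma adjusted p = 0.0351).

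mmu-let-7a-5p, the sequence conserved from worm to human, had levels of 12.72, 12.36, 12.54, 12.65 and 12.75 in T-C cell replicates 1 to 5, against 11.64, 11.86, 12.23, 12.24 and 11.96 in control cell replicates 1 to 5. The lowest T-C cell array, replicate 2, lay 0.12 above the highest control cell array, replicate 4. let-7a-5p rose by 0.62 (SE 0.15, 95% interval 0.28 to 0.95, limma adjusted p = 0.0419). mmu-let-7d-5p, the member with A at position 1, had levels between 12.20 and 12.56 in T-C cell and between 11.41 and 12.12 in control cell arrays, without overlap, and rose by 0.61 (SE 0.16, limma adjusted p = 0.0419). Leaving out T-C cell replicate 4 ended all 3 calls, as did leaving out control cell replicate 1, 2, 3 or 5. Leaving out replicate 1 or 5 of the T-C cell arrays ended 2 of them, mmu-let-7a-5p and mmu-let-7d-5p, while mmu-let-7b-5p passed. The limma adjusted p in these cases ran from 0.0533 to 0.1004.

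let-7c-5p, let-7f-5p and miR-98-5p were higher on average but did not pass. let-7c-5p ranged from 12.39 to 12.78 in T-C cell and from 11.85 to 12.40 in control cell arrays, and its difference was 0.49 (95% interval 0.18 to 0.80, limma adjusted p = 0.0571). let-7f-5p ranged from 12.20 to 12.51 in T-C cell and from 11.47 to 12.20 in control cell arrays, with a difference of 0.49 (95% interval 0.13 to 0.85, limma adjusted p = 0.0974). miR-98-5p ranged from 8.52 to 8.85 in T-C cell and from 8.12 to 8.53 in control cell arrays, with a difference of 0.37 (95% interval 0.09 to 0.64, limma adjusted p = 0.112). For each of these 3, T-C cell arrays lay above all control cell arrays in 4 of 5 cases and the last one overlapped by at most 0.01. Some of these calls depended on the processing. let-7c-5p passed with quantile normalization (limma adjusted p = 0.0350), with detection required on all arrays (0.0410) and with second spots alone (0.0446). let-7f-5p passed with quantile normalization (limma adjusted p = 0.0492). miR-98-5p did not pass in any alternative (smallest limma adjusted p = 0.0867).

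let-7g-5p and let-7i-5p, each made from a lone hairpin and alike at positions 12 and 18, overlapped most. let-7g-5p had levels of 11.92, 11.94, 12.27, 11.97 and 12.05 in T-C cell replicates 1 to 5, against 11.62, 11.67, 11.98, 12.16 and 11.88 in control cell replicates 1 to 5. Its difference was 0.17, with a 95% interval of −0.15 to 0.48 that leaves out the sizes seen for let-7e-5p and let-7k (limma adjusted p = 0.659). let-7i-5p had levels of 11.64, 11.45, 11.98, 11.65 and 11.93 in T-C cell replicates 1 to 5, against 11.46, 11.44, 11.70, 11.45 and 11.44 in control cell replicates 1 to 5. Control cell replicate 3 stood above the other 4 control cell arrays, and the difference was 0.23 (95% interval −0.08 to 0.54, limma adjusted p = 0.476).

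**Figure D2:**
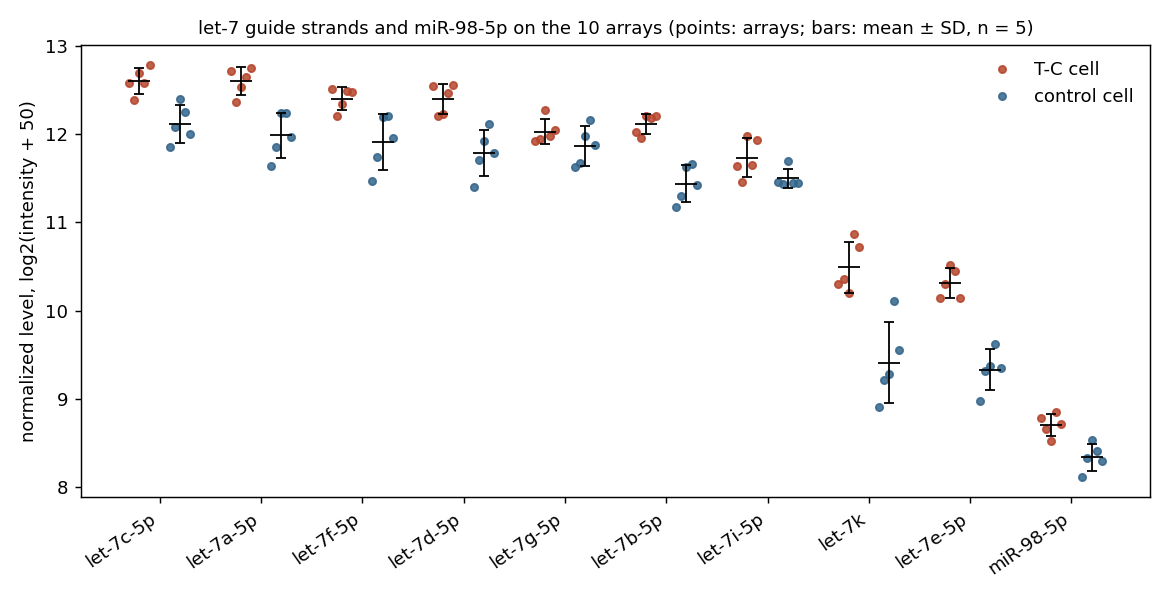
Normalized log2(intensity + 50) of each member, ordered by mean level, with T-C cell arrays left of control cell arrays (points are arrays, bars mean ± SD, n = 5). The groups are apart for let-7a-5p, let-7b-5p, let-7d-5p, let-7e-5p and let-7k and overlap for let-7g-5p and let-7i-5p.

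In all, 5 of 10 members rose, 0 fell and 5 did not pass (limma), where 1.47% of the 476 tested miRNAs were called higher, 6.3% lower and 7.77% in either direction. At an unadjusted p of 0.05, 8 members were higher and 0 lower, where 6.3% of the 476 were higher and 12% lower (limma). The 5 that rose were also the 5 whose groups did not overlap, which held in this direction for 1.89% of tested miRNAs. All 10 differences were positive, with a median of 0.55, against a median of 0.02 over all 476 miRNAs. With arrays scaled to the calibration spots, an alternative chosen after seeing the data, the median of all miRNAs moved to 0.23 and that of the members to 0.67, and without normalization to 0.14 and 0.58. The members' mean level was 11.54 ± 0.10 over T-C cell arrays (range 11.38 to 11.63), against 10.97 ± 0.22 over control cell arrays (range 10.66 to 11.22; n = 5 each, SD). Under median centring, and with all 1892 miRNAs tested, 0 members passed (limma, 2 and 8 members at an unadjusted p of 0.05), and without control cell replicate 2 or 3 also 0 (8 in each case). The count was 1 without T-C cell replicate 4, control cell replicate 1 or control cell replicate 5, and 3 without T-C cell replicate 1 or T-C cell replicate 5. With quantile normalization it was 7.

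In the intensities as deposited, before any scaling, let-7e-5p and let-7k again had the largest ratios and let-7g-5p and let-7i-5p the smallest. The mean was 2.23 times as high in T-C cell as in control cell arrays for let-7e-5p and 2.38 times for let-7k, and between 1.43 and 1.67 times for let-7a-5p, let-7b-5p, let-7c-5p, let-7d-5p, let-7f-5p and miR-98-5p. It was 1.15 times as high for let-7g-5p (4357 ± 681 in T-C cell arrays against 3789 ± 583 in control cell arrays, exact two-sided permutation p = 0.206) and 1.23 times for let-7i-5p (3552 ± 620 in T-C cell arrays against 2894 ± 327 in control cell arrays, exact two-sided permutation p = 0.0635, SD, n = 5 each). The unscaled groups were apart for let-7a-5p, let-7b-5p and let-7e-5p (exact two-sided permutation p = 0.00794 each, unadjusted). That is the smallest p that 5 against 5 can give, and any miRNA without overlap has it. How many of all tested miRNAs were apart in unscaled values was not counted. Without normalization the median log2 difference of all 476 was 0.14.

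The headers number the arrays, without saying what the numbers stand for. T-C cell replicates 2 to 5 all have higher numbers than the 5 control cell arrays, so group and number cannot be told apart for them, and T-C cell replicate 1 has a lower number than all of these. The members' mean level in T-C cell replicate 1 was 11.51, between the 11.38 and 11.63 of the other T-C cell arrays.

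Brightness and difference were only loosely related over the 10 members, though the largest differences, those of let-7e-5p and let-7k, were in dim members. Across the 10 members, mean level and difference had a Pearson r of −0.32 and a Spearman rho of −0.15, values given as a description because members share arrays and probe bases. The dimmest member, miR-98-5p, had a smaller difference (0.37) than let-7e-5p and let-7k, which are close to each other in level. The 7 bright members spanned levels of 11.62 to 12.36. Of the 17 other miRNAs with mean levels in that span, 4 were positive, the median difference was −0.14, 0 rose and 3 fell (limma), against a median of 0.49 for the 7 bright members. No such comparison was made at the levels of let-7e-5p, let-7k and miR-98-5p, and a part of level in their differences was not tested.

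The passenger arms, the strands of the same hairpins that are mostly discarded, had differences close to 0. Of 11 passenger probes of let-7 and miR-98 hairpins, 3 were tested and 0 passed (limma), and the other 8 were detected on 0 to 4 arrays. let-7d-3p, let-7b-3p and let-7a-1-3p had log2 differences of −0.03, −0.03 and −0.02, with 95% intervals from −0.39 to 0.34 for let-7d-3p, from −0.27 to 0.20 for let-7b-3p and from −0.35 to 0.32 for let-7a-1-3p. The probe for let-7a-1-3p also stands for the identical arm of let-7c-2.

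let-7d allows the arms of a single hairpin to be set against each other, since both were detected on all 10 arrays. On the log2 scale let-7d-5p exceeded let-7d-3p by 3.14, 2.53, 2.64, 3.19 and 2.92 in T-C cell replicates 1 to 5, against 2.20, 2.23, 2.43, 2.40 and 1.94 in control cell replicates 1 to 5. The arms were further apart on every T-C cell array than on any control cell array, by 0.64 on average (exact two-sided permutation p = 0.00794, or 0.0159 with Benjamini-Hochberg adjustment over 8 such contrasts, chosen after their values were seen). The distance of let-7b-5p from let-7b-3p was likewise larger by 0.71 without overlap (exact two-sided permutation p = 0.00794, or 0.0159 with Benjamini-Hochberg adjustment). That of let-7a-5p from let-7a-1-3p was larger by 0.63 with overlap (exact two-sided permutation p = 0.0238, or 0.0381 with Benjamini-Hochberg adjustment). let-7b-3p and let-7a-1-3p were near background, at mean log2 levels of 8.07 and 8.45 in T-C cell and 8.11 and 8.46 in control cell arrays. Over 18 alternatives the let-7d contrast passed in 17, the let-7b contrast in 15 with sizes from 0.26 to 0.78, and the let-7a contrast in 8 with sizes from 0.41 to 0.75.

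**Figure D3:**
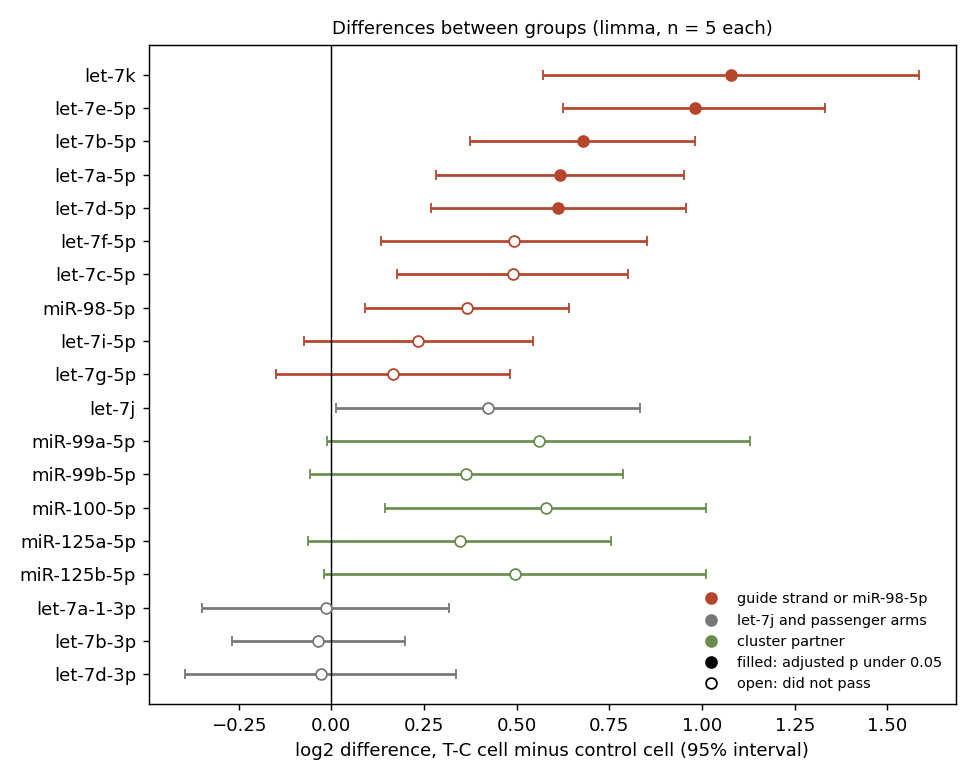
Log2 difference, T-C cell minus control cell, with its 95% interval from limma (n = 5 each) for the members, let-7j, the cluster partners and the tested passenger arms. Filled points (let-7a-5p, let-7b-5p, let-7d-5p, let-7e-5p, let-7k) passed an adjusted p of 0.05, and the passenger arms lie between −0.03 and −0.02.

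let-7j, which departs from the shared seed at base 8, ranged from 10.58 to 11.42 in T-C cell and from 10.34 to 10.91 in control cell arrays, and differed by 0.42 (95% interval 0.01 to 0.83, limma adjusted p = 0.256). miR-1961, which has the shared seed and differs from let-7g-5p by U14A and U16A over its 17 bases (first letters from let-7g-5p), was above the detection limit on 0 of 10 arrays and was not tested.

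Some members are made from hairpins that lie close together. let-7a-5p, let-7d-5p and let-7f-5p come from 1 cluster on chromosome 13, where Mirlet7a-1 (chr13:48538239-48538260), Mirlet7f-1 (chr13:48537889-48537910) and Mirlet7d (chr13:48536078-48536099) lie on the minus strand in exons of the lincRNA gene 6720427I07Rik. The differences were 0.62 for let-7a-5p, 0.49 for let-7f-5p and 0.61 for let-7d-5p. let-7a-5p and let-7f-5p also have second hairpins, Mirlet7a-2 on chromosome 9 and Mirlet7f-2 on the X chromosome. let-7b-5p (chr15:85707325-85707346) and let-7c-5p (chr15:85706616-85706637) share the exonic cluster of Lncppara on the plus strand, with hairpins 622 bases apart. let-7c-5p is also made from Mirlet7c-1 on chromosome 16.

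let-7b-5p minus let-7c-5p on the same array was −0.49 ± 0.08 for T-C cell arrays, against −0.68 ± 0.09 for control cell arrays (n = 5 each, SD), a contrast of 0.19 without overlap (exact two-sided permutation p = 0.00794, or 0.0357 with Benjamini-Hochberg adjustment over 45 pairs). These probes differ by 1 base (G17A, first letter from let-7b-5p). miR-98-5p (chrX:151913229-151913250) lies 786 bases from the Mirlet7f-2 hairpin in an intron of Huwe1, and the pair's contrast was 0.13 (let-7f-5p minus miR-98-5p, exact two-sided permutation p = 0.238, or 0.290 when adjusted).

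The cluster partners miR-99a, miR-99b, miR-100, miR-125a and miR-125b share genomic clusters with let-7a-5p, let-7c-5p and let-7e-5p in mammals. Of the 5 partners 0 passed (limma, with miR-100-5p alone at an unadjusted p of 0.05), and their differences ran from 0.35 for miR-125a-5p to 0.58 for miR-100-5p, with a median of 0.50. The difference of let-7e-5p between the groups (0.98) was larger than those of miR-125a-5p (0.35) and miR-99b-5p (0.36). On the log2 scale let-7e-5p minus miR-125a-5p was −1.18, −1.14, −0.56, −0.99 and −1.17 in T-C cell replicates 1 to 5, against −1.55, −1.46, −1.45, −1.87 and −1.87 in control cell replicates 1 to 5.

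All T-C cell values exceeded all control cell values, by 0.63 on average (exact two-sided permutation p = 0.00794, or 0.0159 with Benjamini-Hochberg adjustment over the 8 contrasts). let-7e-5p minus miR-99b-5p was 0.25, −0.16, −0.20, 0.46 and 0.15 in T-C cell replicates 1 to 5, against −0.86, −0.32, −0.36, −0.55 and −0.47 in control cell replicates 1 to 5. Again the groups were apart, by 0.62 on average (exact two-sided permutation p = 0.00794, or 0.0159 with Benjamini-Hochberg adjustment). Both contrasts passed in 18 of 18 alternative settings, with sizes from 0.51 to 0.87 for miR-125a-5p and from 0.52 to 0.80 for miR-99b-5p. let-7c-5p against miR-99a-5p (−0.07), let-7a-5p against miR-100-5p (0.04) and let-7a-5p against miR-125b-5p (0.12) overlapped (exact two-sided permutation, p = 0.897, 0.865 and 0.571, or 0.897, 0.897 and 0.762 when adjusted).

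**Figure D4:**
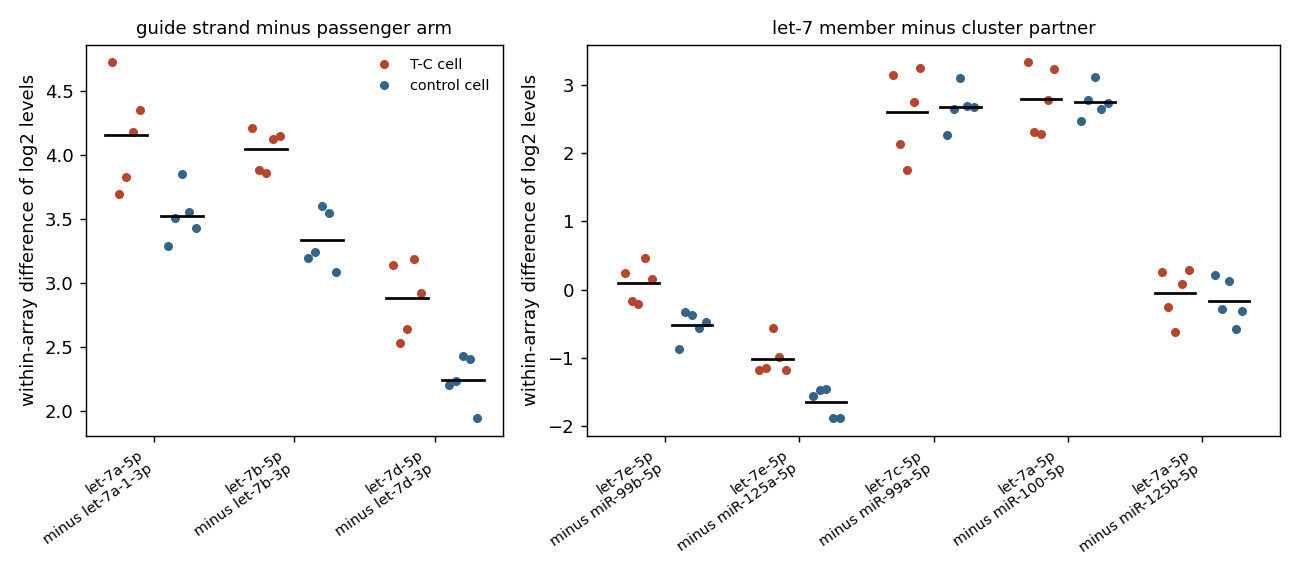
Within-array difference of log2 levels, one point per array with group means as lines, for guide strands minus their passenger arms and for members minus cluster partners, T-C cell left of control cell. let-7e-5p minus miR-99b-5p and minus miR-125a-5p is higher on all T-C cell arrays, and let-7c-5p minus miR-99a-5p overlaps.

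Pairs of members were compared on the same array, so that an equal shift of all log2 levels of an array cancels. A shift that depends on level does not cancel, which concerns pairs of a bright and a dim member. Of 45 pairs, 15 differed between the groups after adjustment over the pairs and 10 of these did not overlap (exact two-sided permutation p = 0.00794, or 0.0357 with Benjamini-Hochberg adjustment for these 10). let-7g-5p was in 6 of the 15, let-7e-5p in 5, and let-7b-5p, let-7c-5p and let-7i-5p in 4 each. let-7e-5p minus let-7g-5p was −1.72 ± 0.14 for T-C cell arrays, against −2.53 ± 0.11 for control cell arrays (n = 5 each, SD), a contrast of 0.81. let-7b-5p minus let-7g-5p was 0.09 ± 0.11 for T-C cell arrays, against −0.42 ± 0.07 for control cell arrays (n = 5 each, SD), so that let-7b-5p was about level with let-7g-5p in T-C cell arrays and below it in control cell arrays.

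The count of pairs that passed was 0 with the second spots alone, 9 with the first spots alone and 0 when 1 array among T-C cell replicates 1, 2 and 4 or among control cell replicates 1, 2, 3 and 5 was left out. The count was 8 with T-C cell replicate 5 left out and 23 with control cell replicate 4 left out. Under median centring and without normalization it was 22. In each of these between 21 and 30 pairs had an unadjusted p under 0.05, against 29 as reported. The contrast of let-7e-5p with let-7g-5p stayed between 0.69 and 1.08 over 18 alternatives, and that of let-7b-5p with let-7g-5p between 0.46 and 0.56.

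The number of base differences went with the size of the contrast only loosely. Its median size was 0.19 over the 5 pairs that differ by 1 base, 0.19 over the 12 that differ by 2, 0.32 over the 12 that differ by 3, 0.32 over the 12 that differ by 4 and 0.74 over the 3 that differ by 5. The pair that differs by 6, let-7d-5p and let-7i-5p, had 0.38. The 16 pairs in which exactly 1 member was let-7e-5p or let-7k had sizes from 0.30 to 0.91, and the other 29 from 0.00 to 0.51. let-7a-5p and let-7e-5p, 1 base apart (U9G), had a contrast of −0.36 (exact two-sided permutation p = 0.0397, or 0.0638 with Benjamini-Hochberg adjustment), and let-7b-5p and let-7k, also 1 base apart (U9G) over the shared length, one of −0.40 (exact two-sided permutation p = 0.0714, or 0.1004 with Benjamini-Hochberg adjustment). let-7a-5p and let-7f-5p, 1 base apart (G12A), had 0.12 (exact two-sided permutation p = 0.0238, or 0.0510 with Benjamini-Hochberg adjustment).

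**Figure D5:**
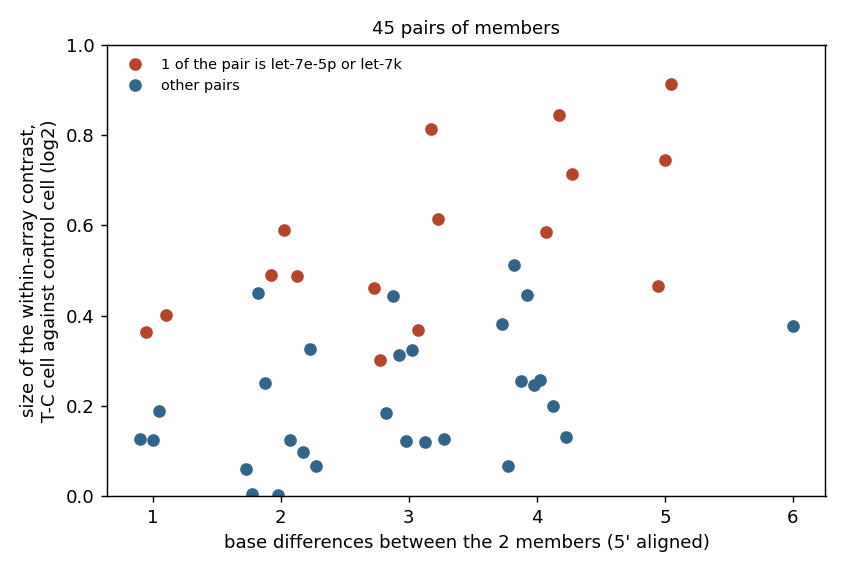
Size of the within-array contrast between groups for the 45 pairs of members, against the number of base differences in the pair. The 16 pairs that hold exactly 1 of let-7e-5p and let-7k run from 0.30 to 0.91, and the other 29 pairs reach 0.51.

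Sorted by base, a grouping made after the values were seen, the members fell apart at positions 9, 12 and 18. The 2 members with G at position 9 differed between groups by 0.98 and 1.08, and the 8 with U there by 0.17 to 0.68. The 2 with U at position 12 and C at position 18, let-7g-5p and let-7i-5p, differed by 0.17 and 0.23, and the other 8 by 0.37 to 1.08. let-7e-5p against let-7k, alike at position 9, gave a contrast of −0.10 (exact two-sided permutation p = 0.611), and let-7g-5p against let-7i-5p one of −0.07 (exact two-sided permutation p = 0.611, and 0.640 for both when adjusted). The level of each probe's own target and of its relatives cannot be separated in these values.

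The members varied together from array to array. Over the 10 arrays, Pearson's r between 2 members ran from 0.47 to 0.99 with a median of 0.87, and after removing the group means from −0.07 to 0.97 with a median of 0.66. Before that removal r was highest for let-7a-5p and let-7d-5p and lowest for let-7g-5p and miR-98-5p. After it, r was highest for let-7a-5p and let-7f-5p and lowest for let-7i-5p and let-7k. These values are a description of arrays that share labelling and normalization. Among the 466 other tested miRNAs, the 5 whose pattern was most like the members' mean over the 10 arrays were miR-3970 (Pearson's r = 0.83), miR-669f-5p (0.81), miR-125b-5p (0.76), miR-150-5p (0.75) and miR-7056-5p (0.75). Their log2 differences were 0.72, 0.59, 0.50, 0.86 and 0.15, and miR-150-5p alone of them passed. None of the 466 reached an r above 0.9.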

How the data were processed

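Per the labels' protocols, RNA was extracted with Trizol, and LC Sciences poly(A)-tailed, tagged and Cy3-stained 1 µg of total RNA. Per the file headers, the authors deposited median spot intensities. Array medians from 72.0 to 282 show no common scaling. Neither the scanner and its software nor the miRBase release is stated in what was used here. Each array held 3968 spots: 3784 for miRNAs, 16 blanks, 148 for calibration and 20 for 5S rRNA. The highest correlation between 2 arrays was 0.982, and no member had the same value on 2 arrays of the series.

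The deposited intensities were converted here to log2(intensity + 50), averaged over 2 spots, normalized by cyclic loess and tested with limma 3.58.1 in R 4.3.3 (lmFit, eBayes with trend, two-sided, Benjamini-Hochberg adjustment over 476 miRNAs, threshold 0.05, intervals of 95%). Within-array contrasts were compared by exact permutation over all 252 splits (Python 3.11.15, numpy 2.4.6). The procedure was tested on simulated data. Hairpins come from RefSeq (GRCm38.p6) and host genes from GENCODE M21.

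The members and lists were chosen with earlier results of these data known. The text names all members, same-seed miRNAs, other let-7 probes, cluster partners and the 5 most alike miRNAs. Alternatives were other normalizations, added values, filters, single spots, array weights, a replicate block and leaving out arrays. Arm and partner contrasts, scaling to calibration spots and leaving out T-C cell replicates 1 and 3 together were added after the data were seen.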

Additional observations from a re-analysis of the deposited data

Results flagged for a closer look

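Control cell replicate 3 stood apart from the other 4 control cell arrays for let-7i-5p, with a normalized log2 level of 11.70 against 11.44 to 11.46. Of 22 groups of 5 arrays examined (the 10 members and their mean, in T-C cell and control cell samples), this was the 1 with an outlying array, and chance gives about 1 in 20. Without this array the difference of let-7i-5p was 0.28 and did not pass (limma).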

How the results depend on the processing

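The difference of each member stayed positive in all 24 alternatives (23 for miR-98-5p, which was not tested when detection on all arrays was required). The number of members that rose, 5, became 0 under median centring, 0 with all miRNAs tested, 2 without normalization, 2 with blanks subtracted to a floor of 1, 3 with the replicate block, 0 without T-C cell replicates 1 and 3 together, and between 0 and 5 when single arrays were left out. That number became 7 with quantile normalization, 6 where detection on all arrays was required and 6 with second spots alone. Over all miRNAs, the 7 higher became 14 with quantile normalization, 1 under median centring, 3 without normalization, 2 with blanks subtracted, 0 with all tested, 4 with the replicate block, 11 with calibration scaling, 0 without T-C cell replicates 1 and 3, and 0 to 8 without single arrays. The 30 lower became 13 under median centring, 1 with blanks subtracted, 1 with all tested, 9 where detection on all arrays was required, 18 with the replicate block, 1 without T-C cell replicates 1 and 3, and 1 to 36 without single arrays. At an unadjusted p of 0.05 the members numbered 8 as reported, 2 under median centring and 7 or 8 elsewhere (limma). Of all 476 miRNAs, in either direction, 87 had such a p as reported and 48 under median centring. The cause was not tested.

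Of 45 pairs, 15 passed, 0 with blanks subtracted (19 unadjusted), 9 with first spots alone, 0 with second spots alone (26 unadjusted) and 0 to 23 without single arrays. The count was 22 under median centring, without normalization, with 200 added and with 1 added. With the replicate block 0 passed and none could, since 5 pairs allow a sign-flip p of 0.0625 at the smallest. Same-numbered samples correlated between −0.20 and 0.26 in their deviations, above 0.1 in 1 of 5 pairs. Of 10 samples, 1 correlated best with its own number. Whether the numbers pair the samples is not settled by these values, since a pairing need not show in such correlations. let-7b-5p against miR-98-5p turned to −0.086 with blanks subtracted. Without single arrays let-7e-5p against let-7k ran from −0.223 to 0.001, let-7g-5p against let-7i-5p from −0.121 to 0.017, let-7c-5p against miR-99a-5p from −0.207 to 0.144 and let-7a-5p against miR-100-5p from −0.053 to 0.166. The last was also −0.041 under median centring, −0.041 without normalization and −0.178 with blanks subtracted, and let-7a-5p against miR-125b-5p was −0.12 with first spots alone. Signal close to the blank spots limits the values of miR-98-5p and of the passenger arms.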
